A study of Mus musculus with 6 samples.

Results

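The 34 genes described here encode proteins that the liver secretes into the blood plasma. They comprise albumin and its relatives, apolipoproteins, fibrinogen and coagulation proteins, protease inhibitors, carriers of hormones, vitamins, heme and haemoglobin, and the adhesion protein vitronectin. They were chosen by gene name on measured values, because earlier results of the same libraries had shown liver genes at a high level in 1 control library. All 34 were found among the 25576 genes listed in at least 1 library.

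Whole spinal cord was sequenced from SMA mice (mSmn-/-, hSMN22tg/0) and control mice (mSmn+/-, hSMN22tg/0), with 3 libraries of each label. All were FVB mice at postnatal day 4. SMA mice have no intact mouse Smn and depend on the human SMN2 transgene, while control mice keep 1 intact Smn copy and carry the same transgene, so that neither group is wild type. Bulk-seq is described as triplicates at n = 1 in SMA and in control, which does not make clear whether the libraries of a label came from different animals. Each library counts here as a replicate of its label, and if they did not, p-values measure technical spread alone. Smn1 was at 10.4, 8.64 and 11.9 FPKM in the control libraries and at 8.48, 9.30 and 11.1 FPKM in the SMA libraries, and this overlap leaves the genotype labels unchecked by the values.

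Levels are given in FPKM, fragments scaled to gene length and to the mapped fragments of the library. This scaling does not correct for libraries that differ in their most abundant genes, which limits comparisons of control replicate 2 with the others. Where 3 values of a group are given, they are in the order of replicates 1, 2 and 3. A gene that a library does not list was taken as 0. Read counts were not used here. From the most frequent low values of genes with a single transcript, 1 fragment per kilobase was estimated to be worth 0.0472 FPKM in control replicate 1 and 0.0558 FPKM in SMA replicate 1, the extremes of the 6 libraries. By this estimate the members Apoa4, Apoc3 and F9 rested on fewer than 10 fragments in each library other than control replicate 2, and Alb, Afp, Apob, Itih3, Ahsg and Vtn on 100 or more in each.

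Control replicate 2 stands apart from the other 5 libraries. Over the tested genes, which do not count as independent replicates, its log2(FPKM + 1) values correlated with those of the other libraries at a Pearson coefficient of 0.836 to 0.849, against 0.983 to 0.992 among the other 5. The members were selected on this difference. Their levels in control replicate 2 are therefore a description with no test, and comparisons of SMA with control are given with and without this library.

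The spinal cord label was checked on 23 markers of its neurons and glia. All 23 were listed, with summed levels of 3055, 2108 and 3413 FPKM in the control libraries and 2827, 3138 and 3114 FPKM in the SMA libraries, and Mbp, a myelin protein gene, had the highest mean. None of the 23, which include motor neuron genes and Hox genes of the trunk, was at 0 in any library. The sum was lowest in control replicate 2, and the median ratio of control replicate 2 to the mean of the other 5 libraries was 0.653 over these markers.

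Plasma proteins of the newborn are made mainly by hepatocytes, which switch on albumin before birth and shut down the fetal protein alpha-fetoprotein in the weeks after it. Their genes share promoter-binding factors such as HNF1, HNF4 and C/EBP proteins, and several sit side by side in clusters that arose by gene duplication. A few of these proteins are also made in the nervous system, for instance transthyretin in the choroid plexus and vitronectin in pericytes.

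The promoters of Alb, Afp, Apoa1, Fgb and Serpinc1 are shown as examples of the albumin family, the apolipoproteins, and the fibrinogen and coagulation genes. The other roles are not shown, and all members were highest in the same library. Each run holds 250 bases before and 50 bases from the gene start in RefSeq, build GRCm38.p6, 5′ to 3′ on the gene's strand. Capitals mark matches on either strand to TATAAA (the TATA box), GTTAAT (the core of an HNF1 site), CAAAGTCCA (HNF4) or TTGCNNAA (C/EBP). Alb lies at chr5:90460620-90460919 on the + strand, Afp at chr5:90490464-90490763 on the + strand, Apoa1 at chr9:46228380-46228679 on the + strand, Fgb at chr3:83049814-83050113 on the - strand and Serpinc1 at chr1:160978333-160978632 on the + strand.
Alb: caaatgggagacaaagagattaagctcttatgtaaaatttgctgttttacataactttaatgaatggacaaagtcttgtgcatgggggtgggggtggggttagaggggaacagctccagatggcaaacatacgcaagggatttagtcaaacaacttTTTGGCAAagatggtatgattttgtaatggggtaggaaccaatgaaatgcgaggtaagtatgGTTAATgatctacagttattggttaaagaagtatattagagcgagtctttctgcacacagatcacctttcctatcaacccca
Afp: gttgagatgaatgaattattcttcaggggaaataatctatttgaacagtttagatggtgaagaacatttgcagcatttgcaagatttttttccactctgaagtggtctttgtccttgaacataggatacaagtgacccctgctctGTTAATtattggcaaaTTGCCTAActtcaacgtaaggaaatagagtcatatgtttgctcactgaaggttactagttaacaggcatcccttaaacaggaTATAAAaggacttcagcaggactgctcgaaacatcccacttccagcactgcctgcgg
Apoa1: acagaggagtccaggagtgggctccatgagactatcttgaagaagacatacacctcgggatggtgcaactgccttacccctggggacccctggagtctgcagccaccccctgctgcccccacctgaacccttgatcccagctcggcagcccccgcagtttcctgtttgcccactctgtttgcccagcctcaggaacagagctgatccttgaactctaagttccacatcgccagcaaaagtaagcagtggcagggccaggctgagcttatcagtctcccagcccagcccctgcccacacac
Fgb: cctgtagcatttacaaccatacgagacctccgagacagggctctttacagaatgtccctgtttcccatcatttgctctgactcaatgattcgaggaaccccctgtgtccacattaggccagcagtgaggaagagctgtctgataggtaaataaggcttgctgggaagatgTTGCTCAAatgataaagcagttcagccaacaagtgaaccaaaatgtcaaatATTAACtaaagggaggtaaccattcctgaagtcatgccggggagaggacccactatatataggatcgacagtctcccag
Serpinc1: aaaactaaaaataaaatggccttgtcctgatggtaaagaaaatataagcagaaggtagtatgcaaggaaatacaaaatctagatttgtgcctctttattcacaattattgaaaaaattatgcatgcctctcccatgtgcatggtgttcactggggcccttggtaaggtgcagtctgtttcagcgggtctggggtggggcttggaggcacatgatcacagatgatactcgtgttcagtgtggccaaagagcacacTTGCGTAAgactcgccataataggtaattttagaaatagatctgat

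The Alb run holds a C/EBP match and an HNF1 core, and the Fgb run holds the same pair. The HNF1 core begins 32 bases before the RefSeq start of Alb and 59 bases before its GENCODE start, and 29 bases before both starts of Fgb. The Afp run holds an HNF1 core, a C/EBP match and a TATA box whose first base is 7 bases before the RefSeq start and 30 bases before the GENCODE start. In Serpinc1 the only match is a C/EBP match, which begins after both the RefSeq and the GENCODE start. In Apoa1 none of the 4 motifs was found in this window. RefSeq promoters were matched for 28 of the 34 members, and the others were Apoc1, Apoc3, Plg, Kng1, Ttr and Hp. The HNF1 core was present in 12 of the 28 (42.9%), against 8.24% of 27025 genes with a promoter in the table. C/EBP matches were present in 15 (53.6%), against 12.2% of all genes, and TATA boxes in 8 (28.6%), against 15.7%. Of the near-identical Serpina1 copies, 4 are among the 12 and 3 among the 15. In smaller lists, the HNF1 core was present in 31.4% of 35 other plasma protein genes, 11.8% of 17 hepatocyte enzyme genes and 0% of 13 spinal cord markers. C/EBP matches were present in 31.4%, 23.5% and 23.1% of these lists and TATA boxes in 25.7%, 29.4% and 7.69%. CAAAGTCCA was present in 0 of the 28 and in 0.555% of all genes. These are matches of letters, and binding was not measured.

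All 34 members were highest in control replicate 2, where 24.7% of the 17088 genes that average at least 0.5 FPKM were highest. Their summed level was 139, 37518 and 95.8 FPKM in the control libraries and 88.7, 162 and 95.8 FPKM in the SMA libraries. This was 9.07% of all FPKM in control replicate 2, while the other 5 libraries held 0.0242% to 0.0445%. The median ratio of control replicate 2 to the mean of the other 5 was 355 over the members and 0.886 over the 17076 genes with a value in those 5 libraries. Against the highest of the 5 libraries in place of their mean, the median ratio was 213. The ratio was at least 10 for 34 members and for 3.36% of genes, and at least 100 for 32 members and for 1.64% of genes. Because the members were chosen for this contrast, nothing is read from these counts.

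**Figure D1:**
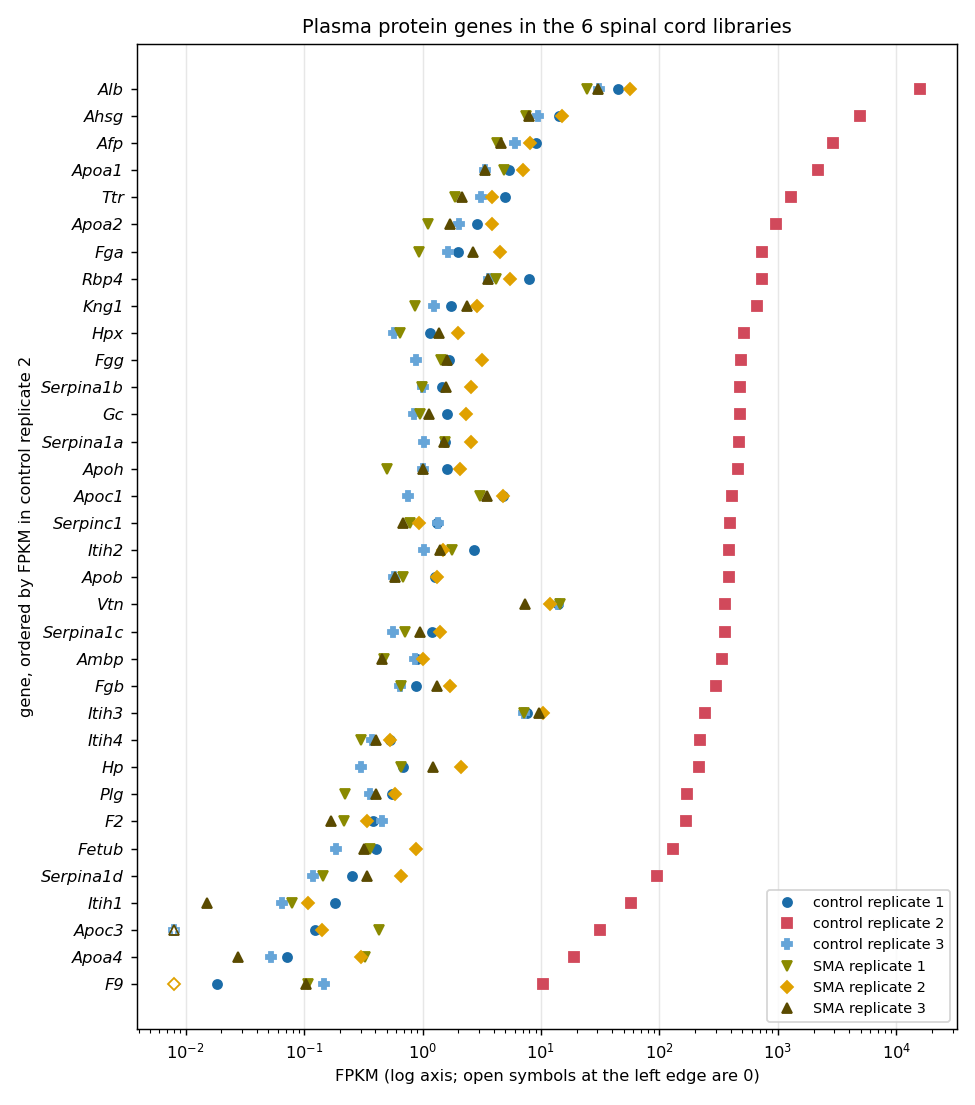
FPKM of the 34 plasma protein genes on a log axis, one row per gene and one symbol per library, ordered by the level in control replicate 2; open symbols at the left edge are values of 0. Control replicate 2 lies to the right of all other libraries in every row, and the gap is narrowest for Itih3 and Vtn.

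In the albumin family, Alb encodes albumin, the main carrier and osmotic protein of plasma. Alb was at 44.6, 15894 and 30.7 FPKM in the control libraries and at 24.6, 56.2 and 30.5 FPKM in the SMA libraries. It ranked first of all genes in control replicate 2 and 1004th to 3020th elsewhere, with overlapping SMA and control values. Afp, for the fetal counterpart of albumin, was at 8.99, 2929 and 6.09 FPKM in the control libraries and at 4.25, 8.12 and 4.57 FPKM in the SMA libraries. The order of the 5 low libraries differed between Alb and Afp, with SMA replicate 2 highest for Alb and control replicate 1 for Afp. Alb was 4.96 to 6.93 times as high as Afp within each of the 5 low libraries and 5.43 times as high in control replicate 2, a ratio that lay inside their range. Gc, the vitamin D binding protein, was at 477 FPKM in control replicate 2 and at 0.847 to 2.34 FPKM elsewhere.

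Among the 7 apolipoproteins, which carry lipids in lipoprotein particles, Apoa1 of high-density lipoprotein was at 5.40, 2182 and 3.34 FPKM in the control libraries and at 4.87, 7.11 and 3.36 FPKM in the SMA libraries. Its residual levels overlapped between the groups. Apob, the structural protein of low-density lipoprotein, had a ratio of 436, and Apoa2 of 417. Apoh, which binds phospholipids, had a ratio of 372. Apoc3, an inhibitor of lipoprotein lipase, was at 31.3 FPKM in control replicate 2 and at 0 in control replicate 3 and SMA replicate 3.
Apoc1 differed from these. It was at 4.76, 406 and 0.755 FPKM in the control libraries and at 3.03, 4.77 and 3.52 FPKM in the SMA libraries, a ratio of 121. Control replicate 3 was low and the other 4 libraries lay close together. Apoa4, made by liver and gut, had a ratio of 122, on few fragments elsewhere.

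Fibrinogen, the clot protein, is built from the chains encoded by Fga, Fgb and Fgg. Fga was at 2.01, 735 and 1.65 FPKM in the control libraries and at 0.927, 4.50 and 2.68 FPKM in the SMA libraries. Fgb and Fgg had their highest residual level in SMA replicate 2 as well, at 1.71 and 3.16 FPKM. The ratios of the 3 chains were 312, 290 and 281. Fga was 2.43 times as high as Fgb in control replicate 2 and 1.41 to 2.63 times as high in the other libraries.
Among clotting proteins, F2, the precursor of thrombin, was at 0.380, 168 and 0.452 FPKM in the control libraries and at 0.219, 0.341 and 0.168 FPKM in the SMA libraries. All SMA libraries lay below control replicates 1 and 3. The same held for Serpinc1, the thrombin inhibitor antithrombin, at 1.31, 392 and 1.36 FPKM in the control libraries and at 0.784, 0.934 and 0.686 FPKM in the SMA libraries. These were 2 of the 34 members, against 12.5% of 21541 genes, taken without control replicate 2 and with a lower filter. With control replicate 2 included the same 2 members are counted, because all members were chosen as high in it and it adds no condition for them, whereas it does for other genes, so that the share of 6.67% of the 17088 genes is no measure for this count. None of the members had all SMA libraries above control replicates 1 and 3, which was the case for 14.2% of those 21541 genes. Plg, the precursor of plasmin, had a ratio of 401, and Kng1, the source of bradykinin, had a ratio of 363. F9, a clotting factor, was at 10.5 FPKM in control replicate 2 and at 0 in SMA replicate 2.

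Of the 11 protease inhibitors and related proteins, Ahsg, for the mineral-binding protein fetuin-A, was the most abundant in control replicate 2, where it came second to Alb among all members. It was at 14.3, 4921 and 9.41 FPKM in the control libraries and at 7.44, 14.9 and 7.93 FPKM in the SMA libraries, with overlapping groups. Fetub, its relative, was at 129 FPKM in control replicate 2 and between 0.186 and 0.877 FPKM elsewhere. Serpina1a to Serpina1d encode mouse forms of alpha-1-antitrypsin, the inhibitor of neutrophil elastase, and are near-identical copies between which reads can be split, so that their single values are uncertain. Their levels in control replicate 2 were 469, 483, 357 and 96.3 FPKM, with ratios of 285, 317, 369 and 317. Serpina1d was the lowest of the 4 copies in all 6 libraries. Ambp, the source of the inhibitor bikunin, had a ratio of 455.
The inter-alpha-trypsin inhibitor heavy chains, some of which bikunin joins to stabilise hyaluronan, did not share one ratio. Itih3 was at 7.60, 242 and 7.26 FPKM in the control libraries and at 7.17, 10.3 and 9.59 FPKM in the SMA libraries, a ratio of 28.8. This was the lowest ratio of the members. As a mean of the other libraries, Itih3 was at 8.39 FPKM and Ahsg at 10.8 FPKM, although Itih3 was far lower in control replicate 2. By library, Itih3 lay below Ahsg in each of them but SMA replicate 3. Itih1, the neighbour of Itih3, had the highest ratio, 636, on an estimated 0.808 to 11.1 fragments in the other libraries. Itih4 had a ratio of 513. Against the highest of the other libraries in place of their mean, Itih4 led the members at 412 and Itih1 was at 314. Itih3 was 4.24 times as high as Itih1 in control replicate 2 and 41.9 to 629 times as high in the other libraries, where the upper end rests on about 1 fragment of Itih1 in SMA replicate 3. Itih2, on another chromosome, had a ratio of 232.

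Among the carriers and scavengers, Ttr encodes transthyretin, which carries thyroxine and, with Rbp4, retinol. Ttr was at 4.94, 1303 and 3.13 FPKM in the control libraries and at 1.89, 3.89 and 2.14 FPKM in the SMA libraries. Rbp4, the retinol-binding protein, was at 7.89, 734 and 3.66 FPKM in the control libraries and at 4.15, 5.49 and 3.58 FPKM in the SMA libraries. Ttr was 1.78 times as high as Rbp4 in control replicate 2 but only 0.456 to 0.857 times as high in the other libraries, where control replicate 1 was highest for both genes. The ratios were 407 for Ttr and 148 for Rbp4. Hpx, for the heme scavenger hemopexin, had a ratio of 450. Hp, for haptoglobin, which binds free haemoglobin, was at 0.680, 215 and 0.300 FPKM in the control libraries and at 0.661, 2.12 and 1.22 FPKM in the SMA libraries. SMA replicates 2 and 3 were higher than both low control libraries, and SMA replicate 1 lay between those controls.

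Vtn, for the adhesion protein vitronectin, was at 13.9, 359 and 14.0 FPKM in the control libraries and at 14.4, 11.8 and 7.26 FPKM in the SMA libraries. The ratio was 29.3. SMA replicate 3 was low, and the other 4 residual levels lay close together. Vtn held 0.958% of the members' sum in control replicate 2 and 7.29% to 16.2% of their sum elsewhere.

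The level left in the 5 other libraries was between 0.157% and 3.47% of that in control replicate 2, as the mean of the 5, with a median of 0.282%. For 28 members the ratio was at least 200 and the residual level at most 0.465%. The 6 others were Itih3, Vtn, Apoc1, Apoa4, F9 and Rbp4. By library, the median residual level was 0.318% in control replicate 1 and 0.209% in control replicate 3, and 0.200%, 0.419% and 0.244% in SMA replicates 1 to 3. The 2 highest medians thus came from 1 library of each group. SMA replicate 2 was the highest of the 5 for 23 members and for 15.7% of genes, control replicate 1 for 5 members and 26.7% of genes, and SMA replicate 3 for 0 members and 16.2% of genes. Control replicate 3 was the lowest of the 5 for 14 members and 26.4% of genes, and SMA replicate 1 for 12 members and 15.8% of genes. Over the members, Spearman's correlation of FPKM between libraries was 0.893 to 0.981 among the 5 and 0.771 to 0.844 between them and control replicate 2. The 34 members are not independent points, and this is a description.

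**Figure D2:**
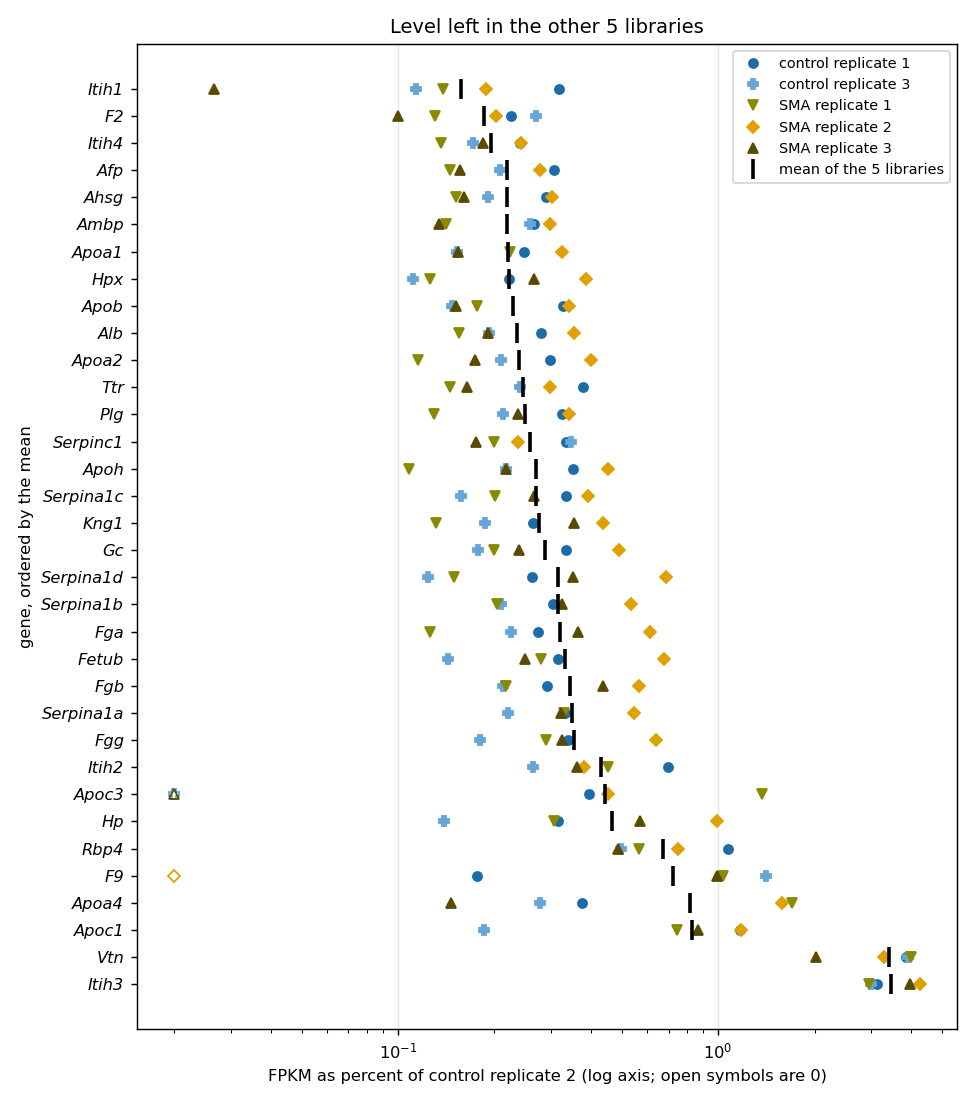
FPKM of each member in the other 5 libraries as a percentage of its FPKM in control replicate 2 (log axis), one symbol per library, with the mean of the 5 as a black bar; open symbols at the left edge are values of 0. Most means lie between 0.157% and 0.465%, while Vtn and Itih3 lie at 3.42% and 3.47%.

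By position, 18 of the members lay in 6 gene clusters, taken as members with less than 200 kb between neighbours on GRCm38. The fibrinogen genes Fgg, Fga and Fgb lay on chromosome 3 from 83007724 to 83049863, and Alb and Afp on chromosome 5 from 90460897 to 90508907. Apoa1, Apoc3 and Apoa4 lay on chromosome 9 from 46228580 to 46243459. Itih4, Itih3 and Itih1 lay on chromosome 14 from 30886476 to 30943289, the 4 Serpina1 genes on chromosome 12 from 103728156 to 103904887, and Ahsg, Fetub and Kng1 on chromosome 16 from 22891277 to 23082078. Listed family genes beside the members were also far higher in control replicate 2. Their ratios were 365 for Afm beside Afp, 562 for Apoa5 beside Apoa4, 478 for Hrg, 147 for Kng2 and 260 for Serpina1e. Serpina1f, also beside the Serpina1 genes, was listed in no library. Listed neighbours of no such family had ratios from 0.740 for Eif4a2 to 1.81 for Rfc4, among them 0.860 for Plrg1 beside Fgb and 0.819 for Sik3 beside Apoa1. Apoh, Fgg, Serpinc1, Ttr, Serpina1b, Serpina1c and Serpina1d share their listed span with other genes in the files, so that their values may hold reads of those genes.

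Other liver lists were described in the same way. Of 44 other plasma protein genes 43 were listed and 42 were highest in control replicate 2, with a median ratio of 330. Their summed levels were 764, 6146 and 592 FPKM in the control libraries and 833, 855 and 840 FPKM in the SMA libraries. Apoe, the most abundant and also an astrocyte gene, was at 2710 FPKM in control replicate 2 and had a ratio of 3.81. Of the next by mean over the 6 libraries, Pzp, a broad protease inhibitor, had a ratio of 376, Agt, the angiotensin precursor that astrocytes also make, of 5.98, and Apoc4 of 353. Acute-phase proteins had a median ratio of 191 over 7 listed genes. Apcs, the most abundant, was at 172 FPKM in control replicate 2, and Saa1 was at 0 there.
All 22 hepatocyte enzyme genes were highest in control replicate 2, with a median ratio of 238. They summed to 1921 FPKM in control replicate 2, to 19.9 and 23.0 FPKM in the other control libraries and to at most 26.4 FPKM in an SMA library. Bhmt, for betaine-homocysteine methyltransferase, was the most abundant in control replicate 2 but not in the other libraries. Of the 20 liver transcription factors 19 were highest in control replicate 2, with a median ratio of 8.62. They summed to 25.3, 159 and 30.3 FPKM in the control libraries and to 25.7, 26.5 and 24.9 FPKM in the SMA libraries. Hnf4a, which drives hepatocyte genes, was the most abundant of them in control replicate 2 at 21.1 FPKM and lay between 0.0501 and 0.159 FPKM elsewhere, while Prox1, which neural cells also express, had the highest mean over the 6 libraries and a ratio of 1.69.

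The 6 genes of the fetal and newborn liver, of which 5 were highest in control replicate 2, summed to 184, 2507 and 99.9 FPKM in the control libraries and to 181, 118 and 67.2 FPKM in the SMA libraries, with a median ratio of 8.23. The imprinted RNA gene H19 was the most abundant of them in control replicate 2, and Igf2, for a growth factor, in each of the other 5 libraries. Of 6 genes of the adult type, 5 were listed and were highest in control replicate 2. Cyp3a11, the most abundant of them in control replicate 2, was at 216 FPKM there, Mup3 at 0.290 FPKM there and at 0 in the other 5 libraries, and Mup20 was listed in none. Their summed level was 4.10, 237 and 1.80 FPKM in the control libraries and 1.56, 4.69 and 3.21 FPKM in the SMA libraries.

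Of the other cell types of liver, 6 of 6 Kupffer cell markers were highest in control replicate 2, with a median ratio of 208 and summed levels of 0.265, 40.1 and 0.104 FPKM in the control libraries and 0.234, 0.327 and 0.134 FPKM in the SMA libraries. Marco, a scavenger receptor, was the most abundant in control replicate 2 and was at 0 in SMA replicates 1 and 2, and Clec4f was at 0 in control replicate 3. Markers of sinusoidal endothelium (5 of 5 highest there) had a median ratio of 97.7, summed to 45.7 FPKM in control replicate 2 and to 1.79 to 3.05 FPKM elsewhere, and were led by Stab2 in control replicate 2 and by Lyve1 or Fcgr2b elsewhere. Markers of stellate cells (5 of 5) had a median ratio of 28.2, summed to 22.5 FPKM there and to 1.05 to 2.07 FPKM elsewhere, and were led by Colec10 in control replicate 2 and by Ecm1 in the other 5 libraries. Markers of biliary epithelium did not follow. Of these 5 genes 0 were highest in control replicate 2, and they summed to 1.81 FPKM there and to 2.02 to 3.44 FPKM elsewhere, with Krt19 the most abundant in each library but control replicate 2, where it was Cftr.

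Erythroid genes, which are active in the liver of newborn mice and present in blood, summed to 1864, 18877 and 1181 FPKM in the control libraries and to 1115, 1719 and 1333 FPKM in the SMA libraries. All 11 listed of 12 genes were highest in control replicate 2, the most abundant was Hbb-bs, and Ahsp was listed in none. Their median ratio was 29.1, and the ratio of Hbb-bs, a beta-globin gene, was 12.6. Summed over the list, the other libraries held 5.91% to 9.88% of the level in control replicate 2. Gene by gene, the mean of the other 5 was a median of 3.44% of that level over the erythroid genes, against 0.282% over the members. Control replicate 1 and SMA replicate 2 were the highest of the 5 libraries for the erythroid sum and also for the members' sum.

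Markers of nearby tissues were looked at for the members that other cells make. The 10 listed of 11 choroid plexus genes had a median ratio of 0.594, with 2 highest in control replicate 2. Their sum was 18.9, 66.3 and 10.4 FPKM in the control libraries and 14.9, 11.5 and 10.7 FPKM in the SMA libraries, and Otx2 was listed in none. The water channel gene Aqp1, which red cells also express, led the list in control replicate 2 at 45.3 FPKM and lay below Sostdc1 in each of the other 5 libraries. The 8 pericyte genes had a median ratio of 1.08 and sums of 41.3, 51.7 and 48.8 FPKM in the control libraries and 39.8, 33.8 and 35.5 FPKM in the SMA libraries, led by Rgs5. The 9 genes of meningeal fibroblasts had a median ratio of 2.97, with ratios from 0.281 to 36.4 and 5 genes highest in control replicate 2. Their sums were 109, 570 and 89.4 FPKM in the control libraries and 105, 71.0 and 65.8 FPKM in the SMA libraries. Igfbp2 led the list and alone held 499 FPKM of the sum in control replicate 2. The part of each cell type in the residual levels of the members was not tested. In bulk libraries, fewer cells of a type and less RNA per cell cannot be told apart.
Markers of other abdominal organs were low. Intestinal epithelium summed to 8.48 FPKM in control replicate 2, of which Fabp2, a fatty acid binding protein gene, held 6.70 FPKM, and to 0.403 to 1.14 FPKM elsewhere, with Cdx2 listed in none. Exocrine pancreas summed to 2.42 FPKM in control replicate 2 and to 1.68 to 3.20 FPKM elsewhere, with Cel, Ctrb1 and Prss2 listed in none. Kidney tubule summed to 0.189 FPKM in control replicate 2 and to 0.166 to 0.415 FPKM elsewhere, with Umod and Aqp2 listed in none.
Receptors and partners of the plasma proteins, which act in the tissue that the proteins reach, had a median ratio of 1.09 over 28 genes, with 12 highest in control replicate 2. Their sum was 426 FPKM there and 423 to 450 FPKM elsewhere, led by Serpine2, a thrombin inhibitor made by glia.

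**Figure D3:**
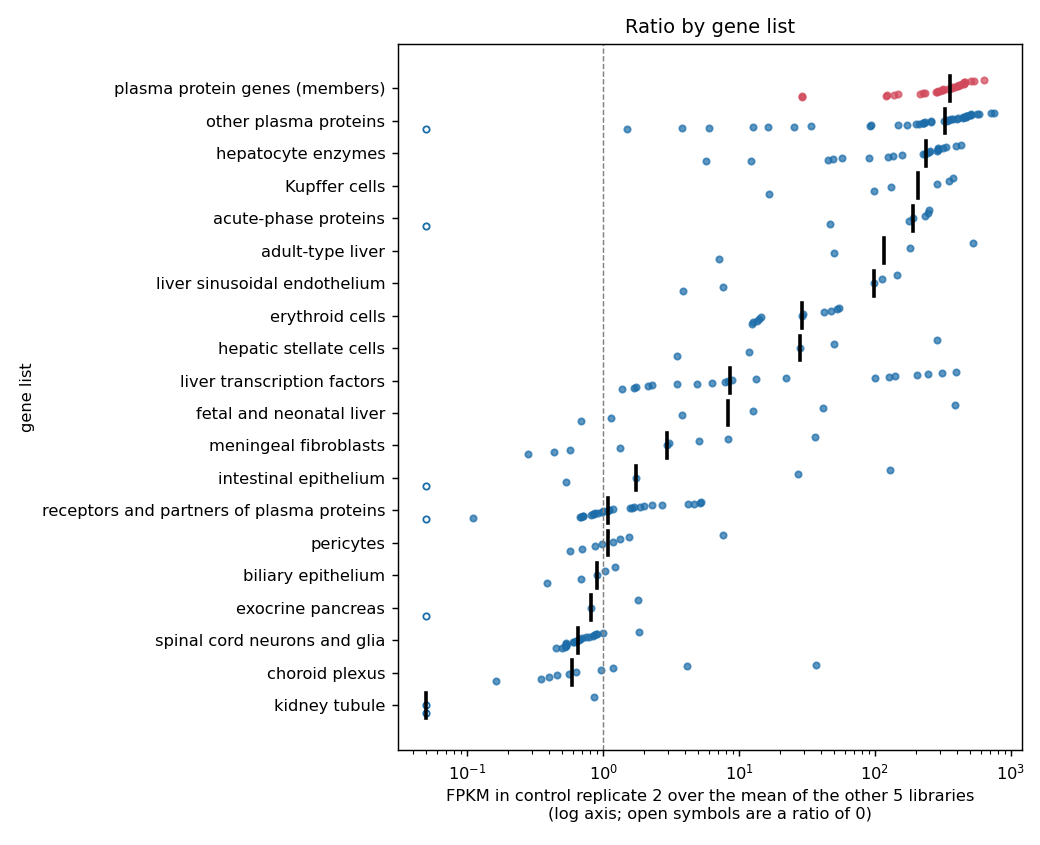
Ratio of FPKM in control replicate 2 to the mean of the other 5 libraries (log axis) for each gene of the members (red) and of 19 other lists (blue), with the median as a black bar and a dashed line at 1; open symbols are ratios of 0, and genes with no value in the other 5 libraries are left out. Medians are 355 for the members, 330 for other plasma proteins and 238 for hepatocyte enzymes, against 0.653 for spinal cord neurons and glia.

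Genes with a ratio of at least 10 numbered 573, of which 34 were members and 98 belonged to the lists above. Together they made up 19.6% of all FPKM in control replicate 2 and 0.480% to 0.719% of all FPKM in each of the others. FPKM is scaled to the mapped fragments of a library, so that levels of different genes in one library are not independent of each other.

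SMA was then compared with control over all genes with limma, which fits a linear model to each gene and shares information on the variance between genes. With all 6 libraries, log2(FPKM + 1) was compared for the 17088 genes above, and all 34 members passed this filter, 9 of them only through control replicate 2. The members were chosen for a high level in 1 control library, which fixes the direction of this comparison for them, so their values are given as a description only. Their median log2 fold change was -2.41, against 0.04 over all genes. At an unadjusted p under 0.05, 0 members were lower and 0 higher, against 2.39% and 3.4% of genes, and 0 members and 0% of genes passed an adjusted p of 0.05 in limma with Benjamini-Hochberg adjustment. The mean of Alb was 5323 FPKM in control and 37.1 FPKM in SMA libraries, and the control mean rests on control replicate 2. Without that library the median over the 25 members that passed the same filter was 0.11.

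Without control replicate 2, the 3 SMA libraries were compared with control replicates 1 and 3 on log2(FPKM + 0.1), over the 21541 genes that average at least 0.05 FPKM, a filter that all 34 members passed. The smaller pseudocount was used because the residual levels are low, and fold changes of genes near it are still understated. Of the members 17 were lower and 17 higher in SMA, with a median log2 fold change of 0.07, against 0.01 over all genes. At an unadjusted p under 0.05, 1 member was lower and 1 higher, against 4.43% and 5.13% of genes, and 0 members passed an adjusted p of 0.05 in limma, against 0.00464% of genes. The lower member was Serpinc1, at a log2 fold change of -0.68 with a standard error of 0.274 (adjusted p = 0.496 in limma), lower in 3 of 3 SMA libraries. Serpinc1 shares its listed span with other genes, so its values may hold reads of those genes. The higher member was Hp, at a log2 fold change of 1.23 with a standard error of 0.513 (adjusted p = 0.513 in limma). Neither difference passed the adjustment. The log2 fold change of Alb was -0.09 with a standard error of 0.325 (adjusted p = 0.949 in limma) and that of Afp was -0.45 with a standard error of 0.293 (adjusted p = 0.662 in limma). For Itih3 and Vtn, the members with the highest residual share, the log2 fold changes were 0.26 (standard error 0.161) and -0.38 (standard error 0.252), with adjusted p = 0.645 and 0.668 in limma.

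**Figure D4:**
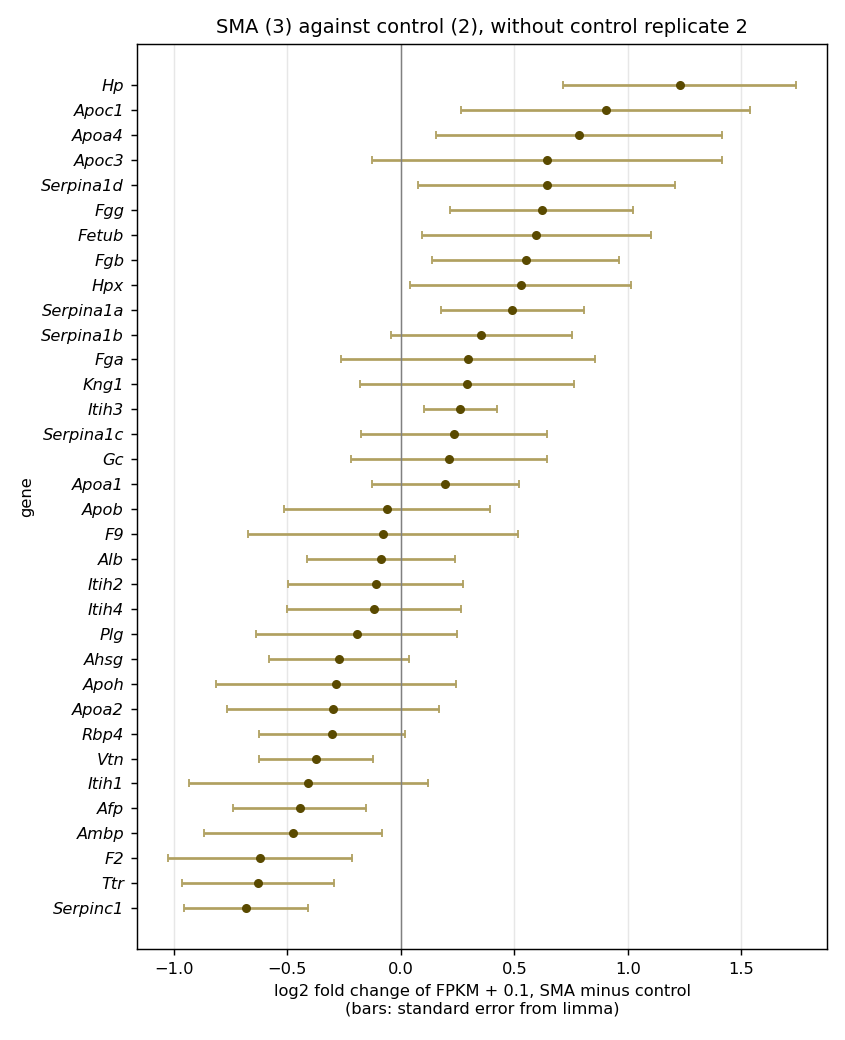
Log2 fold change of FPKM + 0.1 in SMA (3 libraries) against control (2 libraries) for the 34 members without control replicate 2, with bars for the standard error from limma. The values run from -0.68 (Serpinc1) to 1.23 (Hp), with 17 members on each side of 0.

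The summed FPKM of the members without control replicate 2 was 118 ± 30.9 (SD, n = 2) in control and 116 ± 40.6 (SD, n = 3) in SMA libraries, a difference far smaller than the spread between libraries. The sign of the members' median rests on single libraries. It was 0.44 without control replicate 1, -0.29 without control replicate 3, the only other control library, and -0.12 without SMA replicate 2. The comparison has only 2 control libraries, and small differences may be missed.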

How the data were processed

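The authors deposited FPKM per gene and library; the submitters' processing notes name HISAT2, Cufflinks and mm10, and versions and the annotation release are not given in the sources used here. Libraries were made from total RNA of spinal cord after removal of ribosomal RNA and are strand-specific. Genes absent from a library were set to 0. No read counts were used, and the worth of 1 fragment was estimated from values under 0.08 (FPKM times length in kilobases) of genes with a single GENCODE M21 transcript of at least 1500 bases, taking fragments of 200 bases. Of 25576 genes listed, 25408 (99.3%) were found in GENCODE M21, from which gene positions come.

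SMA was compared with control with limma 3.58.1 in R 4.3.3 (lmFit, then eBayes with a trend of variance with expression), with no covariate, two-sided p-values and Benjamini-Hochberg adjustment over all genes tested. All 6 libraries were compared on log2(FPKM + 1) with a minimum mean of 0.5 FPKM, and 5 libraries without control replicate 2 on log2(FPKM + 0.1) with a minimum mean of 0.05 FPKM. The limma step was tested on simulated data, and no result given here rests on that test. An exact permutation test of 3 libraries against 3, or of 3 against 2, cannot give a two-sided p under 0.1, and no p is given for sums over the members. Ratios divide control replicate 2 by the mean of the other 5 libraries. Tables and figures were made with Python 3.11.15, pandas 2.3.3, scipy 1.17.1 and matplotlib 3.10.9. Promoters are from RefSeq (GRCm38.p6).

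The members and the 19 lists were chosen with earlier results of these data known. All members may be named, and of each list at most 4 genes with the highest mean FPKM, genes passing an adjusted p in limma, markers at 0 or not listed, and neighbours in the members' gene clusters. Alternatives were other pseudocounts and filters, scalings, robust eBayes, a block for the replicate number, the sum without Ttr, Vtn and Rbp4, a mean of logs in place of the sum, and leaving out each library.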

Additional observations from a re-analysis of the deposited data

How the results depend on the processing

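All 34 members were highest in control replicate 2 under every scaling and without any 1 of the other libraries. This is no test, because they were chosen as high there and leaving out another library cannot change it. The median ratio was 213 against the highest of the other 5 libraries in place of their mean, and 323 to 419 with each of them left out. Under every alternative 0 members passed an adjusted p of 0.05 in limma. With control replicate 2 included this is a description only, because choosing members high in 1 control library widens the spread of their control values. With all 6 libraries, the number of members lower at an unadjusted p under 0.05 ranged from 0 to 1 with a library left out, and the 1 came without control replicate 2. All 34 members were lower with 6 libraries, and without control replicate 2 the 25 that passed the filter split into 12 lower and 13 higher. Itih3 was among those that turned, from a log2 fold change of -1.38 to 0.24, in a range of -2.20 to 0.24 over the libraries left out. It was at 242 FPKM in control replicate 2 and at 7.17 to 10.3 FPKM in the other 5, so the lower value with 6 libraries rests on that library.

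Without control replicate 2, at an unadjusted p under 0.05, 0 members were lower and 0 higher with no filter on low FPKM. The number higher was also 0 with a pseudocount of 1 and a minimum mean of 0.5 FPKM, with quantile normalization and with rescaling to the same total. Leaving out a library gave 0 to 4 members lower and 0 to 5 higher, and a log2 fold change of Alb between -0.43 and 0.18. The difference of the summed FPKM, -2.06 over the 34 members, was 3.51 without Ttr, Vtn and Rbp4 and -25.4 to 19.8 with a library left out, and the mean of log2(FPKM + 1) differed by 0.0420. The causes were not tested. With 2 control libraries, leaving out 1 assumes that the other varies like the SMA libraries.

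Replicate numbers were not taken as pairs. With all 6 libraries, same-numbered libraries correlated at -0.037, 0.016 and 0.077 in their deviations from the group means. Libraries with different numbers correlated at -0.055 to 0.043. With so few libraries per group, these values cannot show whether the numbers pair the samples. With the replicate number as a block, 0 members were lower and 0 higher with all 6 libraries. Without control replicate 2, SMA replicate 2 has no partner in its block and adds nothing to the comparison, so that the block fit also drops that library. It gave 3 members lower and 0 higher with a median log2 fold change of -0.12, the same median as without SMA replicate 2 and no block, where 4 were lower and 0 higher.

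Over all genes, 409 were lower and 581 higher with 6 libraries at an unadjusted p under 0.05. These counts were 303 and 356 with the block, 387 and 336 with the same total, 567 and 529 with median ratio scaling, and 491 and 882 with no filter, and 125 to 862 and 214 to 1040 with a library left out. Without control replicate 2 they were 955 and 1104, changing to 507 and 651 with the block, which also drops SMA replicate 2, to 611 and 752 without SMA replicate 2 and no block, to 1541 and 742 with the same total, and to 598 to 1464 and 702 to 1772 with a library left out. The residual levels of 12 members rest on fewer than 10 fragments in at least 1 library, by the estimate above.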
